A study of Mus musculus with 12 samples.

Results

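Collagens are proteins of the extracellular matrix that are built from 3 chains wound into a helix, each chain coded by a gene of its own. Members were taken as every gene whose symbol, read from the accession of the probe, is Col, a number, a and a number, such as Col1a1. The array held 43 of the 44 genes of that form in RefSeq, among 20886 named genes in all. Col12a1 was the chain with no matched probe, and each other chain was read by its brightest probe. The livers came from 12 female C57BL/6N mice, 3 in each of 4 groups, which had been on their diets for 6 months from young adulthood. Ctrl mice ate a normal formula diet with corn starch and sucrose as carbohydrate, and RS mice ate the same diet with resveratrol added. DJ mice ate Dongjin rice in place of the starch and sucrose, and DJ526 mice ate DJ526, a Dongjin rice that carries a transferred gene for resveratrol synthesis, so that DJ526 and DJ differ in that gene as well as in resveratrol. Cages were assigned to groups as a whole, so that cage and diet cannot be told apart, and the labels give no dose of resveratrol.

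In the liver, hepatic stellate cells and portal fibroblasts are the main makers of the fibrillar chains of types I and III, and activated stellate cells deposit these in fibrosis. Type IV chains form the basement membrane sheets of vessels and ducts, and type VI chains form beaded filaments around cells. Fibril-associated chains such as Col14a1 decorate the fibrils. The multiplexins Col15a1 and Col18a1 sit at basement membranes, and hepatocytes make much of the liver's Col18a1, whose C-terminal fragment is endostatin. A chain is modified by hydroxylases, folded with the chaperone Serpinh1, trimmed by proteases and crosslinked by lysyl oxidases. The array reads the RNA of whole liver, in which fewer cells of a type and less RNA per cell cannot be told apart, and it reads no deposited collagen.

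Of the 43 chains, 29 (67.4%) were well above background on all 12 arrays, where 74.7% of all named genes were. Another 5 were well above background on some arrays and 9 on none. Among fibrillar chains 8 of 11 were detected on all arrays, namely Col1a1, Col1a2, Col3a1, Col5a1, Col5a2, Col5a3, Col11a2 and Col27a1. Of 6 basement membrane chains 5 were detected, all but Col4a3. The beaded filament chains Col6a1, Col6a2 and Col6a3 were detected on every array, Col6a4 on 4 arrays, and Col6a5 and Col6a6 on none. The fibril-associated chains detected were Col9a1, Col9a2, Col14a1, Col16a1 and Col20a1, 5 of 8, and Col9a3, Col19a1 and Col22a1 were on no array. Both network-forming chains of type VIII, the anchoring fibril chain Col7a1, both multiplexins and the transmembrane chains Col13a1, Col23a1 and Col25a1 were detected throughout. Col10a1 and Col11a1, chains known from growth plate and other cartilage, and Col26a1 and Col28a1 were not well above background on any array. Col2a1, the main fibrillar chain of cartilage, was above background on 8 arrays, 2 in each group.

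RefSeq sequences before the annotated start were found for 35 of the 43 chains (build GRCm38.p6). The 250 bases before the start are shown for Col1a2 and Col3a1, whose levels went together over the mice, and for Col6a3, whose unadjusted p over the 4 groups was the lowest of the detected chains. Capitals mark each match to the CCAAT box (CCAAT), the GC box (GGGCGG) or the TATA box (TATAAA), searched on both strands, and no 2 matches overlap.
Col1a2, chr6:4505368-4505617, plus strand: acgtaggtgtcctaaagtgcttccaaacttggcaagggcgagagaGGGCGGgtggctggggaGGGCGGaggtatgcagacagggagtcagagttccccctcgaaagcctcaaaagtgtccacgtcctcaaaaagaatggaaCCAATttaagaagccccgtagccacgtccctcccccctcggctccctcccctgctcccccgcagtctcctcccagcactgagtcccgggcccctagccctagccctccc
Col3a1, chr1:45311288-45311537, plus strand: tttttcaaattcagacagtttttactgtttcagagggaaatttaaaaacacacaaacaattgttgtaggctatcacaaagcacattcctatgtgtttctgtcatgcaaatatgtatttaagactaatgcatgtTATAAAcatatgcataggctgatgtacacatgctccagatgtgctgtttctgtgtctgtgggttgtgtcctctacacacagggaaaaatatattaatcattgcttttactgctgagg
Col6a3, chr1:90843972-90844221, minus strand: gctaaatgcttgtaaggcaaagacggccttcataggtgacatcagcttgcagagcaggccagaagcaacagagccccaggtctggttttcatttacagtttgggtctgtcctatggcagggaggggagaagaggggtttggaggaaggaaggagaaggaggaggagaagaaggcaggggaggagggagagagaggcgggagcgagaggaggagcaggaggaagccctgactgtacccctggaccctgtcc
The Col1a2 window held a CCAAT box 109 bases before the annotated start and GC boxes 205 and 188 bases before it. The Col3a1 window held a TATA box 117 bases before its start, and the Col6a3 window held none of the 3 motifs. Over the chains, 12 of 35 windows (34.3%) held a CCAAT box, where 34.5% of 27025 windows of the genome did. A GC box was in 21 windows (60%, against 32.9%) and a TATA box in 5 (14.3%, against 13.0%). These are matches of letters and no test of binding.

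The share of spots well above background ran from 73.0% to 80.8% over the arrays, and 0 spots were saturated. Levels are given as log2 of the processed signal relative to the 75th percentile of the same array, so that a level of 0 lies at that percentile, and they compare mice for 1 chain but not chains with each other. Each slide carried 4 arrays. Slide 1 held Ctrl 1, 2 and 3 and DJ 1, slide 2 held DJ 2, DJ 3, RS 1 and RS 2, and slide 3 held RS 3 and DJ526 1, 2 and 3. Each slide thus held 2 of the 4 diets, and diet and slide cannot be fully told apart. A fit with the slide as a block links slides 1 and 2 only through DJ and slides 2 and 3 only through RS. In that fit DJ against Ctrl is DJ 1 less the Ctrl mean, and DJ526 against RS is the DJ526 mean less RS 3. Every difference from Ctrl under a slide block thus rests on DJ 1, and every difference of DJ526 on RS 3. The values of this fit are given beside the results it moves by much. With 3 mice against 3 an exact two-sided permutation test cannot go below p = 0.1. Groups that do not overlap reach just that value, so that a lack of overlap is weak by itself. Its share over all probes is not given here. Tests of differences are therefore those of limma, fitted over all 39429 probes with Benjamini-Hochberg adjustment. Every p that is not called a permutation p comes from that fit, and the number of mice limits its precision.

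No collagen chain passed an adjusted p of 0.05 in limma in any of the 8 comparisons. Against Ctrl, the lowest adjusted p of a chain was 0.596, 0.886 and 0.356 in RS, DJ and DJ526. Over all probes the calls were as few, 0.0% in RS and 0.0% in DJ against Ctrl, 0.00507% in DJ526 against Ctrl, 0.0101% in DJ526 against DJ and 0.00761% in DJ526 against RS. They were 0.0% for the effect of resveratrol on rice minus its effect on starch, 0.0% for rice against starch and sucrose and 0.00507% for any difference among the 4 groups. At an unadjusted p under 0.05 there were 5 of 43 chains in RS against Ctrl (6.0% of all probes), 2 in DJ (5.22%) and 4 in DJ526 (10.8%). There were 3 chains in DJ526 against DJ (9.81%), 1 in DJ526 against RS (5.5%), 6 for the difference between the 2 effects of resveratrol (6.09%), 1 for rice (4.57%) and 2 for any difference (7.7%). The median log2 difference of the 29 detected chains was 0.15, 0.07 and 0.06 in RS, DJ and DJ526 against Ctrl, where all probes had 0.03, -0.02 and 0.02. Of these 29 chains, 19, 19 and 18 had a positive difference.

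Type I collagen, the main fibre of scar tissue, is made of 2 Col1a1 chains and 1 Col1a2 chain. Col1a1 was at -1.16, -0.46 and -1.17 in the Ctrl mice, at 0.20, -0.03 and -0.98 in RS, at -0.09, -0.89 and -0.02 in DJ and at -0.65, -0.48 and -0.94 in DJ526. RS 1, RS 2, DJ 1 and DJ 3 stood above every Ctrl and DJ526 mouse, while RS 3 and DJ 2 lay among the Ctrl mice, so that the groups overlapped. The log2 difference from Ctrl was 0.66 in RS (standard error 0.327, adjusted p = 0.857), 0.59 in DJ (adjusted p = 0.985) and 0.24 in DJ526 (adjusted p = 0.822). As folds these were 1.58, 1.51 and 1.18, and the 95% interval of the RS difference ran from -0.06 to 1.38. The difference of DJ526 from DJ was -0.35 and from RS -0.42, with intervals that included 0. Under a slide block the differences from Ctrl were 1.38, 0.84 and 1.67 in RS, DJ and DJ526, and those of DJ526 from DJ and from RS turned to 0.83 and 0.29. The RS difference was 1.02 without RS 3 and 0.43 without RS 1.

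Col1a2 was highest in the same mice. It stood at 1.12, 1.63 and 1.27 in Ctrl, 2.09, 2.04 and 1.30 in RS, 1.90, 1.42 and 1.88 in DJ and 1.56, 1.63 and 1.32 in DJ526. RS 1, RS 2, DJ 1 and DJ 3 again exceeded all others. The log2 difference from Ctrl was 0.47 in RS (standard error 0.216, adjusted p = 0.836), 0.39 in DJ and 0.16 in DJ526. The RS difference had an interval from -0.00 to 0.95. Col3a1, the chain of type III fibres that accompany type I in the portal tracts, was at 0.16, 0.70 and 0.46 in Ctrl, 1.1, 0.97 and 0.42 in RS, 1.08, 0.37 and 1.13 in DJ and 0.49, 0.58 and 0.37 in DJ526. The same 4 mice exceeded all others. The log2 differences from Ctrl were 0.39 in RS, 0.42 in DJ (standard error 0.225) and 0.04 in DJ526. Without RS 3 the RS difference was 0.73 for Col1a2 and 0.60 for Col3a1, and without DJ 2 the DJ difference of Col3a1 was 0.67.

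For these 3 chains the mean of DJ526 lay nearer to that of Ctrl than the means of RS and DJ did. DJ526 and DJ also differ in the transferred gene, so that what is called the effect of resveratrol on rice holds both. This effect of resveratrol on rice (DJ526 against DJ) minus that on starch (RS against Ctrl) was tested as a difference between effects. It was -1.01 for Col1a1 (interval -2.03 to 0.00, unadjusted p = 0.0507, adjusted p = 0.823). It was -0.70 for Col1a2 (unadjusted p = 0.0419, adjusted p = 0.803) and -0.78 for Col3a1 (unadjusted p = 0.0329, adjusted p = 0.786). None passed the adjusted threshold. A slide block put DJ526 farthest from Ctrl, at 1.17 for Col1a2 and 0.98 for Col3a1, where RS was at 0.97 and 0.92 and DJ at 0.56 and 0.64. The 3 differences between effects were then -0.55, -0.35 and -0.59. The block also turned the DJ526 against DJ difference of Col1a2 (-0.23, then 0.62) and of Col3a1 (-0.38, then 0.34), so that the direction between DJ526 and DJ rests on how the slides are treated. With the block this direction hangs on RS 3, the lowest RS mouse for these 3 chains. Rice against starch and sucrose gave 0.09, 0.04 and 0.04.

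**Figure D1:**
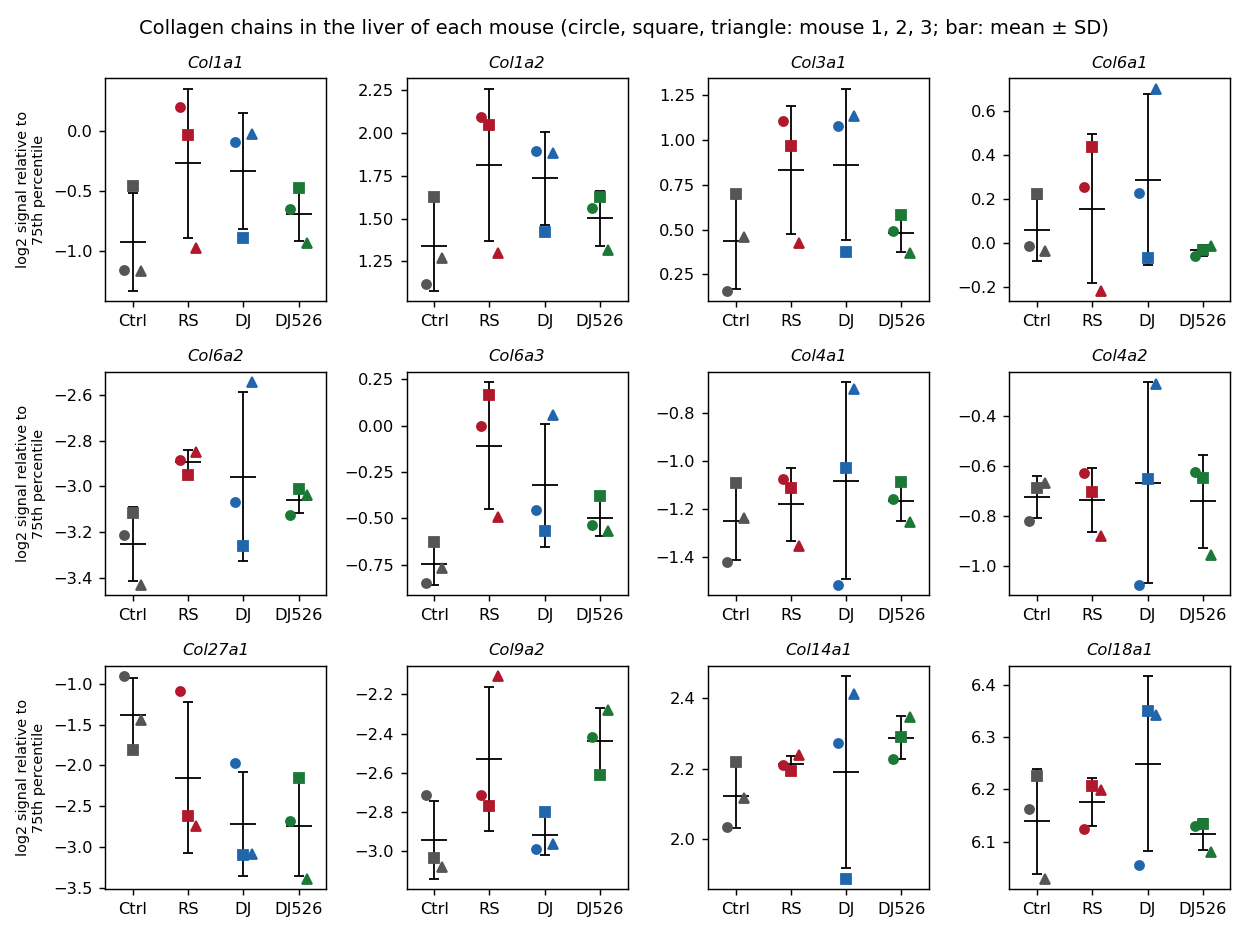
Log2 signal relative to the 75th percentile of the array (vertical axes, each on its own scale) for 12 chains in the 3 mice of Ctrl, RS, DJ and DJ526; horizontal bars are the mean and whiskers 1 SD. RS 1, RS 2, DJ 1 and DJ 3 are the 4 highest mice for Col1a1, Col1a2 and Col3a1, every Ctrl mouse lies below all RS mice for Col6a3, and every Ctrl mouse lies above all DJ and DJ526 mice for Col27a1.

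The type V chains are minor fibrillar chains that sit in the core of type I fibres. Col5a1 was at -2.11, -2.12 and -2.10 in Ctrl, -1.78, -1.88 and -2.16 in RS, -2.14, -2.0 and -1.82 in DJ and -1.96, -1.86 and -2.01 in DJ526. All DJ526 mice were above all Ctrl mice, by a log2 difference of 0.17 (adjusted p = 0.638) that had the other sign (-0.05) after normexp background correction. Col5a2 was at -5.45, -5.35 and -5.99 in Ctrl, -5.56, -5.43 and -5.04 in RS, -5.00, -5.59 and -5.68 in DJ and -5.30, -5.52 and -5.68 in DJ526. Its groups overlapped in every comparison, and its differences from Ctrl of 0.26, 0.18 and 0.10 in RS, DJ and DJ526 were 0.74, 0.60 and 0.29 under a slide block. Col5a3 differed from Ctrl by -0.61 in RS (unadjusted p = 0.0461) and by -0.51 in DJ526, and DJ was 0.07 from Ctrl (adjusted p = 0.825, 0.526 and 1.00 in RS, DJ526 and DJ). Ctrl 2, at 0.23, was the highest mouse, and without it the differences were -0.40 in RS and -0.30 in DJ526, and with a slide block -0.25 and -0.12. All DJ526 mice lay below all DJ mice, by -0.58 (adjusted p = 0.517).

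Col27a1, a fibrillar chain known from cartilage, had the largest differences from Ctrl among the detected chains. It was at -0.91, -1.81 and -1.45 in Ctrl, at -1.09, -2.62 and -2.74 in RS, at -1.98, -3.10 and -3.08 in DJ and at -2.68, -2.16 and -3.39 in DJ526. Both rice groups lay wholly below Ctrl, and RS overlapped it through RS 1. The log2 difference was -1.33 in DJ (2.52-fold lower, unadjusted p = 0.0184, adjusted p = 0.886) and -1.36 in DJ526 (2.56-fold lower, unadjusted p = 0.0168, adjusted p = 0.356). Rice against starch and sucrose gave -0.96 (adjusted p = 0.975). A slide block gave -0.59 in DJ, turned the RS difference (-0.77) and the DJ526 difference to 0.64 each, and gave -0.30 for rice. That value of -0.59 is DJ 1 less the mean of the Ctrl mice, all on slide 1. Col11a2 was lower than in every Ctrl mouse in all DJ and all DJ526 mice, by -0.21 and -0.25 (adjusted p = 1.00 and 0.646), the first was -0.02 after normexp background correction, and the second was -0.83 under a slide block. Col24a1, above background on 11 arrays, was 1.51-fold lower in RS than in Ctrl with no overlap (log2 difference -0.59, adjusted p = 0.830) and 1.58-fold higher in DJ526 than in RS (log2 difference 0.66, unadjusted p = 0.0316).

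Type VI collagen is assembled from Col6a1, Col6a2 and 1 further chain, most often Col6a3. Col6a3 was at -0.85, -0.63 and -0.77 in Ctrl, at 0.00, 0.17 and -0.49 in RS, at -0.46, -0.57 and 0.06 in DJ and at -0.54, -0.38 and -0.57 in DJ526. No Ctrl mouse reached a mouse of any other group. The log2 difference from Ctrl was 0.64 in RS (1.56-fold, standard error 0.185, unadjusted p = 0.00542, adjusted p = 0.596), 0.42 in DJ (1.34-fold, unadjusted p = 0.0425, adjusted p = 0.953) and 0.25 in DJ526 (1.19-fold, adjusted p = 0.646). Over the 4 groups its F test had an unadjusted p of 0.0315 and an adjusted p of 0.595 from limma. The difference between the 2 effects of resveratrol was -0.81 (interval -1.39 to -0.24, unadjusted p = 0.0101, adjusted p = 0.675). With a slide block it was -0.30, the differences from Ctrl were 0.63, 0.29 and 0.63 in RS, DJ and DJ526, and that of DJ526 from DJ turned from -0.17 to 0.34. Without DJ 3 the DJ difference was 0.24.

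The partners of Col6a3 were closer to Ctrl. Col6a1 was at -0.01, 0.22 and -0.04 in Ctrl, 0.25, 0.44 and -0.22 in RS, 0.23, -0.07 and 0.70 in DJ and -0.06, -0.03 and -0.01 in DJ526. The log2 differences from Ctrl were 0.10, 0.23 and -0.09 in RS, DJ and DJ526, each with an interval that included 0, and 0.20, 0.17 and 0.38 under a slide block. Col6a2 was at -3.21, -3.12 and -3.43 in Ctrl, -2.88, -2.95 and -2.85 in RS, -3.07, -3.26 and -2.54 in DJ and -3.13, -3.01 and -3.04 in DJ526. All RS mice were above all Ctrl mice, by 0.36 (adjusted p = 0.848), and this was 0.17 under a slide block. DJ 3 had the highest level of Col6a1 and of Col6a2. Col6a4 was well above background on all 3 DJ526 arrays, on that of RS 3 and on no Ctrl or DJ array, and these 4 arrays are the 4 of slide 3. The mean of DJ526 was 1.65-fold or more above that of Ctrl (measured means -6.32 and -7.24, adjusted p = 0.460). It was 1.72-fold or more above that of DJ (measured mean -7.32, adjusted p = 0.481). For these bounds a dim array counted at its own Col6a4 signal or at its faintest probe well above background, whichever was brighter. They are bounds on the means and take no account of the spread between mice. The intervals of the measured log2 differences ran from 0.01 to 1.85 against Ctrl and from 0.09 to 1.93 against DJ. The other Col6a4 probe was well above background on no array. A slide block turned the log2 differences of DJ526 to -0.36 from Ctrl and -0.46 from DJ.

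The basement membrane chains Col4a1 and Col4a2, which join as 2 and 1 in the common type IV trimer, had small differences from Ctrl. Col4a1 was at -1.42, -1.09 and -1.24 in Ctrl, -1.08, -1.11 and -1.36 in RS, -1.52, -1.03 and -0.70 in DJ and -1.16, -1.09 and -1.25 in DJ526. Col4a2 was at -0.82, -0.69 and -0.67 in Ctrl, -0.63, -0.70 and -0.88 in RS, -1.07, -0.65 and -0.27 in DJ and -0.62, -0.65 and -0.95 in DJ526. For both chains DJ spread the most, with DJ 1 the lowest and DJ 3 the highest of the 12 mice. The log2 differences of Col4a1 from Ctrl were 0.07, 0.17 and 0.08 in RS, DJ and DJ526, and the intervals together ran from -0.32 to 0.56. Those of Col4a2 were -0.01, 0.06 and -0.02, with intervals within -0.40 to 0.44. A slide block gave -0.49, -0.27 and -0.30 for Col4a1 and -0.55, -0.35 and -0.41 for Col4a2 in RS, DJ and DJ526. Col4a6, a chain of a rarer type IV trimer, had all DJ526 mice above all Ctrl mice, by 0.44 (1.36-fold, unadjusted p = 0.0352, adjusted p = 0.428). A slide block turned the difference to -0.21, and a dimmer Col4a6 probe, also detected on every array, gave -0.04. Col4a3 was above background on 1 array, of DJ526.

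Among the fibril-associated chains, Col9a2 is known from cartilage. It was at -2.72, -3.04 and -3.08 in Ctrl, -2.71, -2.77 and -2.11 in RS, -2.99, -2.80 and -2.97 in DJ and -2.42, -2.61 and -2.28 in DJ526. All DJ526 mice lay above all Ctrl and all DJ mice, by 0.51 and 0.48 (unadjusted p = 0.0191 and 0.0245, adjusted p = 0.369 and 0.460). RS 3, the RS array on the slide of the DJ526 arrays, was the highest mouse of all. The RS difference from Ctrl was 0.41 (unadjusted p = 0.0473) and 0.20 without RS 3. A slide block turned the DJ526 differences to -0.24 from Ctrl and -0.19 from DJ, and the RS difference was then 0.09. Over the 4 groups the unadjusted p was 0.0378 and the adjusted p 0.614. Its relative Col9a1 was 0.57 higher in DJ526 than in DJ with no overlap (adjusted p = 0.595), and -0.42 under a slide block. A dimmer Col9a1 probe, well above background on 6 arrays, gave -0.17 in that comparison.

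Col14a1, which binds the surface of type I fibres, was at 2.04, 2.22 and 2.12 in Ctrl, 2.21, 2.19 and 2.24 in RS, 2.27, 1.89 and 2.41 in DJ and 2.23, 2.29 and 2.35 in DJ526. DJ526 lay above every Ctrl mouse by 0.16 (adjusted p = 0.626), a difference that was 0.05 after normexp background correction. Col16a1 was 0.23, 0.14 and 0.05 from Ctrl in RS, DJ and DJ526, and 0.41 in DJ526 under a slide block. Col20a1 was lower than in every Ctrl mouse in RS, by -0.74 (adjusted p = 0.844), and by -0.76 in DJ with overlap, and the RS difference was -0.45 without RS 1 and -1.97 under a slide block. Its difference between the 2 effects of resveratrol was 1.33 (unadjusted p = 0.0209, adjusted p = 0.728), opposite in sign to those of Col1a2, Col3a1 and Col6a3, and the other Col20a1 probe gave 0.80. Col8a1, a network-forming chain, was 0.40 higher in RS than in Ctrl with no overlap (adjusted p = 0.894), which was 0.11 after normexp background correction and 0.91 under a slide block.

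Of the multiplexins, Col18a1 was at 6.16, 6.23 and 6.03 in Ctrl, 6.12, 6.21 and 6.20 in RS, 6.06, 6.35 and 6.34 in DJ and 6.13, 6.13 and 6.08 in DJ526. Its differences from Ctrl were 0.04, 0.11 and -0.02, and the intervals lay within -0.21 to 0.30, the narrowest among the chains, while a slide block gave -0.26, -0.08 and -0.35. Col15a1 was at -5.22, -5.05 and -5.08 in Ctrl, -5.32, -5.66 and -4.52 in RS, -5.36, -5.20 and -5.61 in DJ and -5.35, -4.80 and -5.24 in DJ526. Its groups overlapped in all comparisons, and its DJ526 difference from Ctrl of -0.02 was -0.94 under a slide block. Col7a1, the anchoring fibril chain, was -0.33 and -0.34 from Ctrl in RS and DJ and 0.22 in DJ526, and its difference between the 2 effects of resveratrol was 0.89 (unadjusted p = 0.0321, adjusted p = 0.784) and 0.58 under a slide block, which moved the differences from Ctrl to 0.08, -0.06 and 0.60. The transmembrane chain Col13a1 was lower in every RS mouse than in every Ctrl mouse, by -0.39 (adjusted p = 0.929), which was -0.08 after normexp background correction and -1.12 under a slide block.

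**Figure D2:**
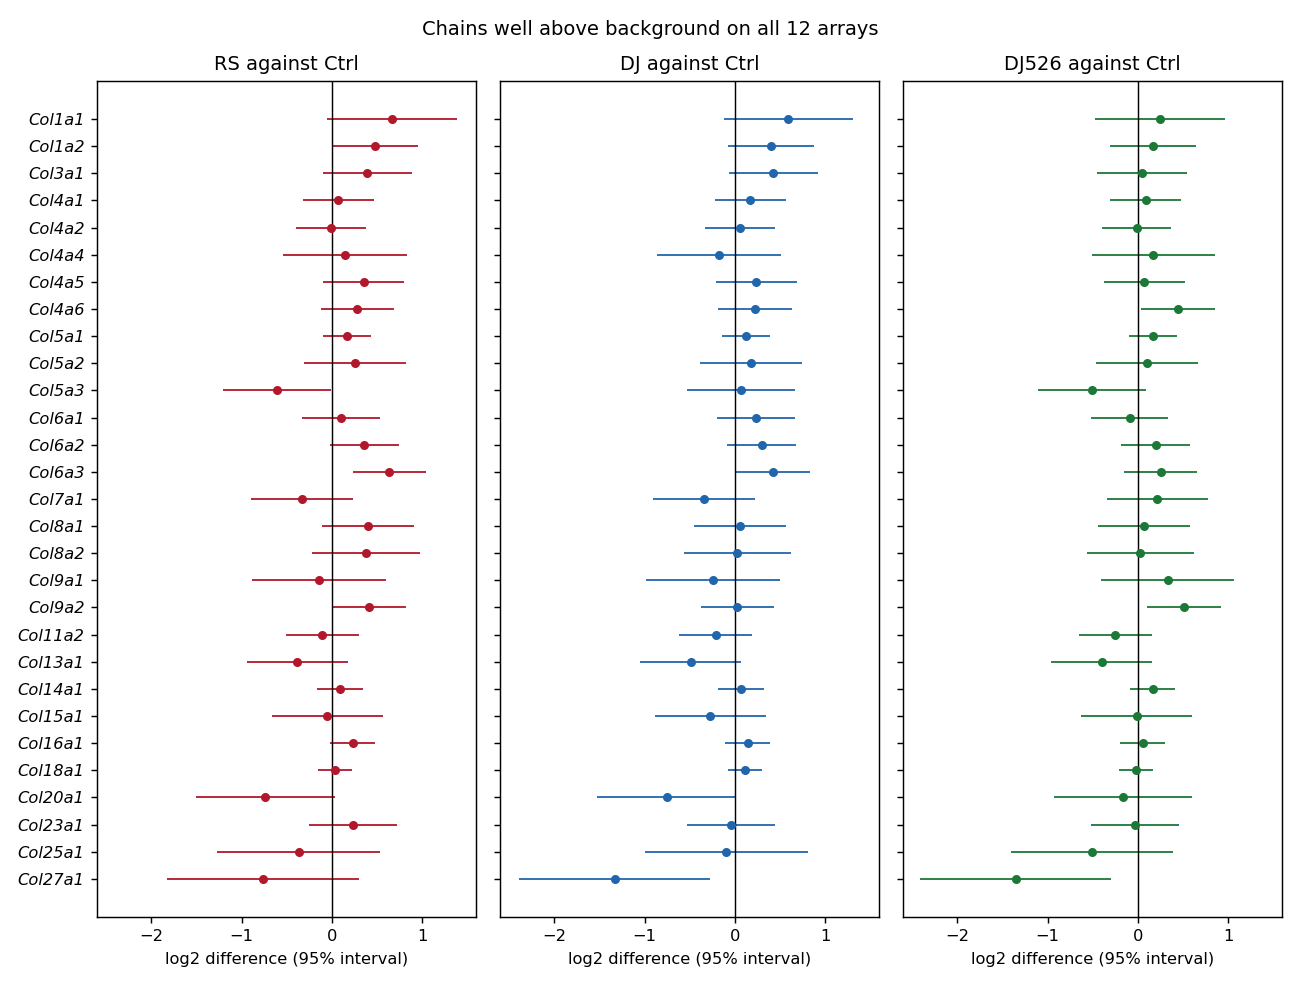
Log2 difference from Ctrl with its 95% interval from limma (horizontal axes) for the 29 chains that were well above background on all 12 arrays, 1 panel each for RS, DJ and DJ526. Most intervals include 0, those of Col6a3 in RS and DJ, Col9a2 in RS and DJ526, Col4a6 in DJ526, Col5a3 in RS and Col27a1 in DJ and DJ526 do not, and none of these passed the adjusted threshold.

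By class, the 8 detected fibrillar chains had median log2 differences from Ctrl of 0.21, 0.15 and 0.07 in RS, DJ and DJ526, with 5, 6 and 5 of them positive. The median of the 5 basement membrane chains was 0.15, 0.17 and 0.08, and that of the 3 beaded filament chains 0.36, 0.30 and 0.20. The 5 fibril-associated chains had 0.09, 0.03 and 0.16. The 3 transmembrane chains had -0.37, -0.09 and -0.40. In DJ526 against DJ, 1 of 8 fibrillar chains and 0 of 3 beaded filament chains had a positive difference. The medians were -0.15 and -0.17, where all probes had 0.04. In DJ526 against RS again 1 of 8 and 0 of 3 did (medians -0.23 and -0.19, all probes -0.003). In DJ526 against DJ a slide block made Col1a1 (0.83), Col1a2 (0.62), Col3a1 (0.34), Col27a1 (1.23), Col6a1 (0.21) and Col6a3 (0.34) positive. Col5a2, Col5a3, Col11a2 and Col6a2 stayed negative. In DJ526 against RS the block made Col1a1 (0.29), Col1a2 (0.20), Col3a1 (0.05), Col5a1 (0.22), Col6a1 (0.19) and Col27a1 (0.0002) positive. Col5a2, Col11a2, Col6a2 and Col6a3 stayed negative there. The counts of positive chains thus rest on how the slides are treated. Col1a1, Col1a2 and Col3a1 also went together over the mice, so that they are not separate results. These comparisons share groups of mice, and the medians carry no test.

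Of the 14 chains with several probes, 9 had more than 1 probe detected on every array. All 9 had the same sign on these probes in RS against Ctrl, 5 in DJ against Ctrl, 7 in DJ526 against Ctrl, 8 in DJ526 against DJ and 7 in DJ526 against RS. In DJ against Ctrl the probes disagreed for Col4a4, Col4a6, Col16a1 and Col23a1, whose brightest probes were within 0.23 of Ctrl. For the difference between the 2 effects of resveratrol 4 of 9 had the same sign. Each of Col1a1, Col1a2, Col3a1, Col6a3 and Col27a1 had 1 probe, so that no second probe bears on their values.

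Chains that share a trimer or a fibre were set against each other over the 12 mice, and Col1a1 against Serpinh1, in 8 pairs and 16 relations (Pearson's and Spearman's for each). Both values of a pair come from 1 array and share its scaling. For Col1a1 and Col1a2, Pearson's r was 0.985 (permutation p = 1e-05, adjusted 8e-05) and Spearman's rho 0.972 (permutation p = 1e-05, adjusted 8e-05). For Col1a1 and Col3a1, r was 0.950 (permutation p = 2e-05, adjusted 8e-05) and rho 0.895 (permutation p = 0.00015, adjusted 0.00048), and for Col1a2 and Col3a1, r was 0.945 (permutation p = 2e-05, adjusted 8e-05) and rho 0.888 (permutation p = 0.0002, adjusted 0.000533). The value of 1e-05 is the smallest that 100000 permutations can give. These 3 relations were as close within groups, where deviations from the group means had r of 0.979, 0.946 and 0.941, and within slides, with 0.979, 0.941 and 0.934. Without the 2 mice farthest from the median of the first chain, r was 0.985, 0.973 and 0.914. The median r of all probes detected on every array with Col1a1 was -0.07, and 0.0293% of 27286 probes had an r above 0.9. This share counts the probes of Col1a1 itself, Col1a2 and Col3a1.

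Over all 12 mice the other pairs of chains had lower r. For Col4a1 and Col4a2, r was 0.920 (permutation p = 0.00025, adjusted 0.000571) and rho 0.811 (permutation p = 0.00216, adjusted 0.00432), and without DJ 1 and DJ 3 r was 0.728. In deviations from the group means r was 0.940 and from the slide means 0.898. For Col6a1 and Col6a3, r was 0.744 (permutation p = 0.00588, adjusted 0.00855) and rho 0.525 (permutation p = 0.0843, adjusted 0.104). For Col6a1 and Col6a2, r was 0.614 (permutation p = 0.0357, adjusted 0.0476) and rho 0.476 (permutation p = 0.122, adjusted 0.136). Without DJ 3 and RS 2, the mice farthest from the median of Col6a1, r was 0.406 with Col6a3 and 0.102 with Col6a2. Both relations over all mice were thus weaker without those 2, though leaving out the extremes of Col6a1 narrows its range and tends to lower r. In deviations from the group means, over all 12 mice, r was 0.956 with Col6a3, above the values of Col3a1 with the type I chains, and 0.663 with Col6a2. From the slide means it was 0.789 and 0.775. Col5a1 and Col5a2, which join in 1 trimer, did not go together, with r = -0.36 (permutation p = 0.251, adjusted 0.251) and rho = -0.47 (permutation p = 0.128, adjusted 0.136). Col5a1 ran only from -2.16 to -1.78 over the mice, and Col5a2 was dim, at -5.99 to -5.00, which limits what these values can show. Col1a1 went with Serpinh1, the chaperone of procollagen, with r = 0.805 (permutation p = 0.00262, adjusted 0.00466) and rho = 0.790 (permutation p = 0.0034, adjusted 0.00544), and r was 0.776 without Ctrl 3 and RS 1.

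**Figure D3:**
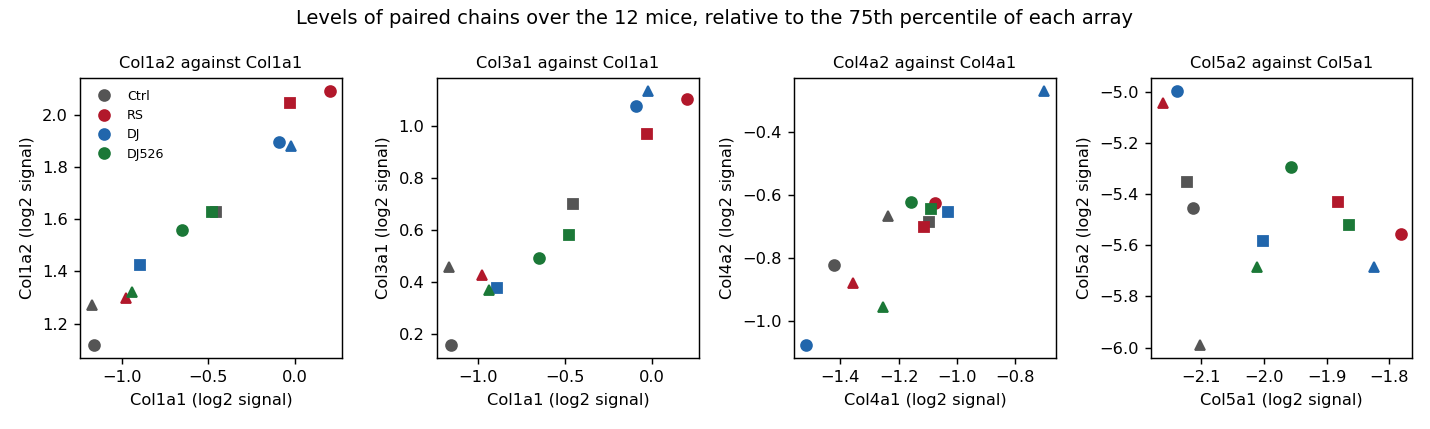
Levels of paired chains (log2 signal relative to the 75th percentile of the array on both axes), 1 point per mouse, with circle, square and triangle for mouse 1, 2 and 3 and colour for diet. Col1a2 and Col3a1 track Col1a1 over the 12 mice (r = 0.985 and 0.950), Col4a2 tracks Col4a1 with DJ 1 and DJ 3 at the ends, and Col5a2 does not track Col5a1 (r = -0.36).

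The genes that make and crosslink collagen were read from a list of 30, of which 28 were detected on every array and 0 were called in any comparison. In RS against Ctrl 3 detected members had an unadjusted p under 0.05 (Fkbp10 at 0.36, Loxl1 at 0.48 and Pcolce2 at -0.66), where 6.0% of all probes had one. In DJ against Ctrl there were 0 (5.22% of all probes), and in DJ526 against Ctrl 2, P3h1 at 0.35 and Loxl3 at 0.24 (10.8%). DJ526 against DJ had 2, Serpinh1 and Bmp1 (9.81%), and DJ526 against RS had 1, P3h3 (5.5%). For the difference between the 2 effects of resveratrol there were 7 of 28, where 6.09% of all probes had such a p. Of these 5 were negative, Serpinh1 (-0.35), Fkbp10 (-0.52), Adamts2 (-0.77), Loxl1 (-0.73) and Loxl2 (-0.70), which fold, trim or crosslink collagen. The hydroxylase subunit P4ha1 (0.62) and Pcolce2 (0.86), an enhancer of procollagen trimming, were positive. Under a slide block the 5 negative values were -0.15, -0.23, -0.40, -0.32 and -0.09 in the same order, and P3h1 in DJ526 against Ctrl turned to -0.19. The median of the list was -0.10, with 11 of 28 positive, where all probes had 0.01. Serpinh1 was at 0.15, 0.25 and 0.12 in Ctrl, 0.38, 0.37 and 0.04 in RS, 0.38, 0.26 and 0.41 in DJ and -0.02, 0.22 and 0.08 in DJ526. Every DJ mouse lay above every Ctrl and DJ526 mouse, and DJ526 against DJ was -0.26 (standard error 0.105, unadjusted p = 0.0334, adjusted p = 0.480), which a slide block turned to 0.10. Loxl1, a lysyl oxidase, differed from Ctrl by 0.48 in RS (unadjusted p = 0.0415, adjusted p = 0.811), 0.41 in DJ and 0.16 in DJ526, and by 0.91 in DJ526 under a slide block. Bmp1, a protease that trims procollagen, had the lowest F p of the list and was lower in every DJ526 mouse than in every DJ mouse, by -0.28 (adjusted p = 0.446), or -0.15 under a slide block. Lox was well above background on 1 array.

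Of 15 genes of collagen degradation, 11 were detected and 0 were called. The protease inhibitor Timp1 was at -3.79, -3.33 and -4.30 in Ctrl, -2.28, -3.28 and -3.84 in RS, -3.30, -3.95 and -2.59 in DJ and -4.14, -3.43 and -4.19 in DJ526. RS 1 and DJ 3 were the highest and the groups overlapped. The differences from Ctrl of 0.68, 0.53 and -0.11 in RS, DJ and DJ526 were 1.00, 0.51 and 0.92 under a slide block. Mmp2, a gelatinase made by stellate cells, differed from Ctrl by 0.46, 0.47 and -0.06 in RS, DJ and DJ526, with every DJ mouse above every Ctrl mouse, and its difference between the 2 effects of resveratrol was -0.98 (unadjusted p = 0.0191, adjusted p = 0.725). A slide block gave -0.47 for it and turned the DJ526 difference from Ctrl to 0.87. The difference between the 2 effects was positive for 1 of the 11 detected members, with a median of -0.43, where all probes had 0.01. All 19 genes of profibrotic signalling were detected and 0 were called. At an unadjusted p under 0.05 there was 1 in each of RS against Ctrl (Pdgfb), DJ against Ctrl (Tgfbr2) and DJ526 against DJ (Pdgfc). Over all probes 6.0%, 5.22% and 9.81% had such a p in these comparisons. Tgfb1, the main profibrotic cytokine, was at -1.68, -1.78 and -1.32 in Ctrl, -1.42, -1.75 and -1.84 in RS, -1.75, -1.95 and -1.78 in DJ and -1.63, -1.73 and -1.76 in DJ526. Its differences from Ctrl were -0.08, -0.23 and -0.11, and 0.12, -0.16 and 0.26 under a slide block. Of 6 collagen receptor genes 5 were detected and 0 were called.

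**Figure D4:**
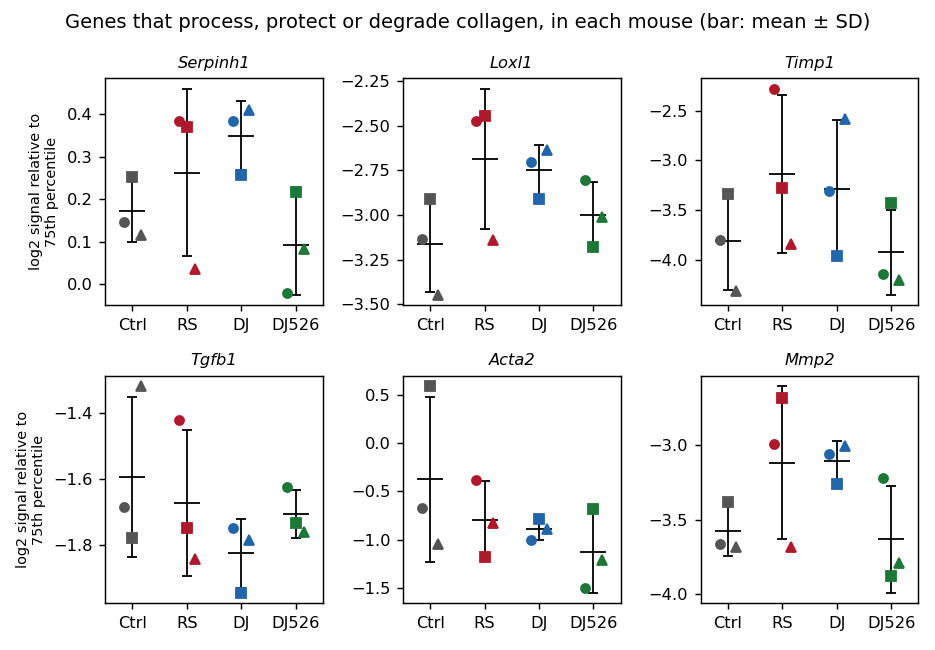
Log2 signal relative to the 75th percentile of the array (vertical axes, each on its own scale) in each mouse for 6 genes of collagen folding, crosslinking and turnover and of stellate cells; horizontal bars are the mean and whiskers 1 SD. RS 3 is the lowest RS mouse for Serpinh1, Loxl1, Timp1 and Mmp2, and the groups overlap for Timp1, Tgfb1 and Acta2 in the comparisons with Ctrl.

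Markers of the cells that make collagen were read beside the chains. All 14 markers of stellate cells and myofibroblasts were well above background on every array, and 0 were called or at an unadjusted p under 0.05 in any comparison. Over all probes 4.57% to 10.8% had such a p, so that few would be looked for in a list of 14. Their mean level ran from -0.40 to -0.16 in Ctrl, -0.27 to -0.19 in RS, -0.38 to -0.20 in DJ and -0.29 to -0.24 in DJ526. Acta2, the actin of myofibroblasts and vessel muscle, was at -0.67, 0.59 and -1.05 in Ctrl, -0.38, -1.18 and -0.83 in RS, -1.0, -0.78 and -0.89 in DJ and -1.51, -0.68 and -1.21 in DJ526. Ctrl 2 was the highest mouse. The differences from Ctrl were -0.42, -0.52 and -0.76 (adjusted p = 0.957, 1.00 and 0.489 in RS, DJ and DJ526), and without Ctrl 2 they were 0.06, -0.03 and -0.27. The 7 markers of portal fibroblasts and mesothelium, all detected, had a mean level of -2.85 to -2.63 in Ctrl, -3.05 to -2.63 in RS, -3.06 to -2.76 in DJ and -3.13 to -2.90 in DJ526. The 8 markers of sinusoidal endothelium ran from 0.97 to 1.1 in Ctrl, 0.91 to 1.05 in RS, 0.74 to 1.09 in DJ and 0.94 to 1.09 in DJ526. The 7 hepatocyte markers, all detected, lay between 7.21 and 7.56 over the 12 mice. The 5 cholangiocyte markers were at -3.05 to -1.77 in Ctrl, with Ctrl 2 at the top, and at -3.14 to -2.40 in the other groups. The 5 Kupffer cell markers were at 2.19 to 3.05 in Ctrl and 1.84 to 2.62 in the other groups. Some of these other lists held members at an unadjusted p under 0.05, and 0 were called. Among them were Alb (lower in DJ526 than in Ctrl and RS), Pecam1 (lower in DJ526 than in Ctrl) and Kdr and Tek (DJ against Ctrl). Spp1 (higher in RS than in Ctrl) and Entpd2 (lower in DJ526 than in DJ) were others. In these comparisons 5.22% to 10.8% of all probes had such a p. Of 4 adipocyte markers, Cfd was above background on 9 arrays, Plin1 on 10 and Adipoq on 7, and Lep on all 12. Ctrl 1, DJ 2 and RS 1 stood apart in the first 3, with Adipoq at -2.88, -3.49 and -3.03 where the other mice ran from -6.90 to -5.64, and Cfd at -0.16, -1.11 and -1.22 where the others ran from -8.57 to -4.18. Lep did not follow them, and was highest in RS 3 (-4.64). Its difference from Ctrl in DJ526 was 0.85 (unadjusted p = 0.0136, adjusted p = 0.333), which a slide block turned to -0.22. Without Ctrl 1, DJ 2 and RS 1 there were again 0 called chains, and the differences of Col1a1 from Ctrl were 0.31, 0.76 and 0.12 in RS, DJ and DJ526. Those of Col3a1 were 0.12, 0.53 and -0.10, and those of Col6a3 0.53, 0.50 and 0.20. Against Ctrl, the ranges of DJ526 did not overlap for the portal list (lower) and for Lep (higher), and those of the other lists and groups did. The part of such cells in the levels of the chains was not tested.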

How the data were processed

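Liver RNA of 12 mice was measured on one-colour Agilent arrays. The authors deposited, per array, the spot intensity from Feature Extraction (version 11.5.1.1, per the file headers), and a table of globally normalized intensity, which is that signal times 1 factor per array (99.8% to 99.9% of probes within 0.001 on the log2 scale). For each probe the unflagged spots of the deposited intensity were averaged and put on the log2 scale relative to the 75th percentile of the array. Of 39429 probes, 69.8% were named by RefSeq accession. All arrays entered 1 fit in limma (3.58.1, under R 4.3.3), with a mean for each diet and a variance trend. Benjamini-Hochberg adjustment covered every probe, at a threshold of 0.05. The fit was tested on simulated data. Groups follow the labels. A supplementary sample table lists the array identifiers of RS and DJ the other way round. With that exchange every RS and DJ value would change places, as would DJ526 against DJ and against RS, rice against starch would change, and the difference between the 2 effects of resveratrol would stay as it is. The labels and the methods name different RNA extraction reagents. The members and lists were chosen with earlier results of these data known. Chains given in each mouse were 13 of types I, III, IV, V, VI, XIV, XV and XVIII and those with an F p under 0.05. Given by a difference were chains whose groups did not overlap, that were measured in some groups or whose probes disagreed. From the lists came Serpinh1, Lox, Tgfb1, Timp1, Acta2 and up to 4 members each of lowest F p. The per-mouse values of Col27a1 and any other gene named fell outside this rule and were chosen after their values were seen. Correlations used 100000 permutations (Python 3.11.15 with pandas 2.3.3, scipy 1.17.1 and numpy 2.4.6), and figures matplotlib 3.10.9. Alternatives were scalings, the deposited table, normexp (run without spots with background flags, as decided once an earlier run had been seen), a filter on dim probes, blocks for slide and number, position on the array, the methods' t-test and Z ratio, the mean of all probes, leaving out each mouse and, chosen after seeing the data, leaving out 3 mice with high adipocyte markers.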

Additional observations from a re-analysis of the deposited data

How the results depend on the processing

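The count of called chains was 0 under all 194 alternatives that give an adjusted p, leaving out each mouse included. The Z ratio and p cut-offs of the methods were also applied, with no adjustment and without the methods' intensity condition and q-value. These cut-offs called 0 chains in RS and 1 in DJ against Ctrl (Col27a1). They called 2 in DJ526 against Ctrl (Col6a4 and Col27a1), 2 in DJ526 against DJ (Col5a3 and Col6a4) and 1 in DJ526 against RS (Col24a1). Whether the dim Col6a4 and Col24a1 would meet the intensity condition was not tested. Over all probes the cut-offs called 666, 539, 1527, 1493 and 805. Of 842 alternative values of 34 differences, those whose groups did not overlap or whose unadjusted p was under 0.05 in a chain above background on 1 array or more, 8 had the other sign. Under a slide block these were Col9a2 in DJ526 against Ctrl (-0.24) and against DJ (-0.19), Col4a6 in DJ526 against Ctrl (-0.21), Col9a1 in DJ526 against DJ (-0.42), Col27a1 in DJ526 against Ctrl (0.64) and Col6a4 in DJ526 against Ctrl (-0.36) and against DJ (-0.46). With normexp it was Col5a1 in DJ526 against Ctrl (-0.052). The 34 were picked from these same data. Where groups do not overlap, leaving out a mouse cannot turn the sign, so that a low count of turned signs was partly fixed in advance. Of the list genes, the slide block turned Serpinh1 in DJ526 against DJ (0.10), Lep in DJ526 against Ctrl (-0.22) and DJ (-0.36), P3h1 in DJ526 against Ctrl (-0.19) and Loxl2 in RS against Ctrl (-0.020). Outside the 34, the block also turned the DJ526 against DJ differences of Col1a1 (0.83), Col1a2 (0.62), Col3a1 (0.34) and Col6a3 (0.34). The cause was not tested. In deviations from the group means the relation of Col5a1 and Col5a2 had r = -0.66. No p is given for it, since deviations tied within each group cannot be shuffled freely over the mice. Without 2 mice the r of Col6a1 with Col6a2 was 0.102 and with Col6a3 0.406. Deviations of samples with the same number had r from -0.35 to 0.41 with a median of 0.033, where those with other numbers had a median of -0.006. Of 12 samples, 6 were closest to one of their own number. The numbers were not taken as pairs, though so small a check cannot exclude a pairing. The replicate block left 0 called chains in every comparison and 0 called probes. Chains on few arrays, such as Col4a3, are limited by signal over background. The alternatives for list genes and the fit without Ctrl 1, DJ 2 and RS 1 were chosen after seeing the data.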

Other observations

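Over the 12 mice, the named genes detected on every array whose levels were nearest to those of Col1a1 by Pearson's r were Col1a2 and Col3a1, then Itga11, a collagen receptor of fibroblasts (0.917), Fkbp10, a prolyl isomerase of the collagen-making machinery (0.908), S100a11 (0.907) and Dpt, a matrix protein that binds fibrils (0.905). Timp1 (0.879), Loxl1 (0.864) and Pdgfrb, a receptor of stellate cells (0.840), were among the 30 nearest, as was Col6a3 (0.854). These were chosen after their values were seen, all values of a mouse share 1 array, and no p is given for them. Among the 28 other detected chains the r with Col1a1 ran from 0.985 for Col1a2 to -0.75 for Col20a1, with a median of 0.12.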
